A study of Mus musculus with 6 samples.

Results

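The 10 genes described here encode the mouse TRIM24 protein family (Trim24, Trim28, Trim33 and Trim66) and the heterochromatin factors that write or read methylation of lysine 9 of histone H3, called H3K9 (Setdb1, Suv39h1, Ehmt2, Cbx1, Cbx3 and Cbx5). They were listed by symbol and matched to 10 of the 43629 Ensembl genes in the count files, and all 10 were among the 15470 genes with enough reads to be tested. The list was selected on the counts of these same 6 cultures, with the fold changes between the treatments known, so the members' own differences are a description without a test. RNA-Seq was carried out on primary ventricular cells of CD-1 mouse embryos at embryonic day 13.5, in 3 control cultures given AllStars negative siRNA and 3 knockdown cultures given a pool of DNMT1 siRNAs. Both siRNAs were used at 12 nM, RNA was taken after 72 h, and in every culture ventricles of a whole litter had been pooled and the cells sorted with magnetic beads for VCAM1, a surface protein of embryonic cardiomyocytes. The labels do not say whether cultures of a treatment came from separate litters, so the spread between them may be partly technical. Such a knockdown lowers Dnmt1 mRNA without removing the gene.

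DNMT1 is the enzyme that copies DNA methylation to the new strand after replication. Methylation of H3K9 is a partly separate layer of gene silencing. Sequence-specific KRAB zinc finger proteins bring TRIM28 (KAP1) to DNA, TRIM28 recruits the methyltransferase SETDB1 and the heterochromatin protein HP1, and HP1 binds the methylated lysine that SETDB1 and SUV39H1 leave behind. EHMT2 (G9a) adds fewer methyl groups to the same lysine, mostly outside the dense heterochromatin around centromeres. TRIM24 and TRIM33 share the domain layout of TRIM28 but do not need KRAB proteins to reach chromatin: TRIM24 is a reader of histone tails and a cofactor of the retinoic acid receptor, and TRIM33 works with SMAD proteins of the TGF-beta pathway. TRIM66 is the fourth relative and is best known from the testis.

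The 250 bases before the transcription start of 3 members are shown because DNMT1 acts on CpG dinucleotides. These members were picked by their values in these cultures, Trim24 as the member with the clearest higher level, Trim28 as the most abundant and Trim66 as the least abundant. They were taken from RefSeq (GRCm38.p6) and run 5′ to 3′ on the strand of the gene, with every CG dinucleotide in capitals. The windows are chr6:37870561-37870810 (plus strand) for Trim24, chr7:13023902-13024151 (plus strand) for Trim28 and chr7:109508135-109508384 (minus strand) for Trim66. The Trim28 window belongs to the RefSeq start, which lies inside the longer span that GENCODE gives the gene.
Trim24: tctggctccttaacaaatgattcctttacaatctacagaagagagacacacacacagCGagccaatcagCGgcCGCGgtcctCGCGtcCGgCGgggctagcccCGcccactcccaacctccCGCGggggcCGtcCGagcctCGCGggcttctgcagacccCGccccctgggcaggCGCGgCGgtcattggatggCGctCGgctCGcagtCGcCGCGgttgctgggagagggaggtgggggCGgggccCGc
Trim28: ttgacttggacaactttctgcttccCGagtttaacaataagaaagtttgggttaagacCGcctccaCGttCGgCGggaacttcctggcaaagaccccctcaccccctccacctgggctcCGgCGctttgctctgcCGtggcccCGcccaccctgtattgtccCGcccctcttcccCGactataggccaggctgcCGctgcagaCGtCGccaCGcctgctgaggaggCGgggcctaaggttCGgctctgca
Trim66: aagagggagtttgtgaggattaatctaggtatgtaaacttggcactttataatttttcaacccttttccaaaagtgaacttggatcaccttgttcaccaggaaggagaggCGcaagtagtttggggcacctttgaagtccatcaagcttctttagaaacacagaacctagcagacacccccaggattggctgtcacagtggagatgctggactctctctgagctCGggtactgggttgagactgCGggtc

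The Trim24 window held 27 CG dinucleotides, the Trim28 window 17 and the Trim66 window 3. Over all 32851 RefSeq promoter windows of this length the median was 6 and the quartiles were 2 and 16. At least as many as in Trim24 were found in 8.56% of all windows, at least as many as in Trim28 in 23.5%, and at most as many as in Trim66 in 37.8%. RefSeq gave windows for 9 of the 10 members (not for Trim33), 14 in all, and 12 of the 14 held more than the median. Trim24 had a second, inner start whose window held 1 CG. The first starts of Setdb1, Cbx1 and Suv39h1 had 13, 16 and 11 CG dinucleotides, while Cbx3 had 29 and 31 and Ehmt2 18 and 36 at their 2 starts. For Cbx5 the counts were 22 and 7, and the second start of Suv39h1 had 25. The letters CG read the same on both strands, and they say where methylation is possible, not where it was present. Methylation of these windows was not analysed here. The most CG dinucleotides were in windows of Ehmt2 and Cbx3, and any relation between their number and the RNA differences was not tested.

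Reads counted on genes ranged from 27852412 to 35896018 in the control cultures and from 13739561 to 16186310 in the knockdown cultures. Dnmt1 itself had 3446, 2759.5 and 2878 normalized counts, that is counts scaled to a common library size, in the control cultures and 772, 786 and 666 in the knockdown cultures. Its knockdown mean stood at 24.5% of its control mean (log2 fold change -2.03, SE 0.11, adjusted p = 0.000192, edgeR quasi-likelihood test with Benjamini-Hochberg adjustment), and Dnmt3a, which a treatment tag of these 3 samples names, at 118%. Uniquely mapped reads outside annotated exons made up 16.4% ± 1.58 in control cultures and 29.3% ± 4.23 after knockdown (SD, n = 3 each), without overlap (exact permutation test, two-sided, p = 0.1, the smallest that 3 against 3 allow). All 8 cardiomyocyte markers were detected, 5 of the 8 were higher after knockdown past the limits of an FDR below 0.05 and a fold change above 1.5, and their summed level was 411 to 529 RPKM in control cultures and 710 to 872 RPKM after knockdown. RPKM are reads scaled to the length of the annotated exons of a gene in kilobases and to the library size. RNA of genes listed as fibroblast, smooth muscle and epicardial markers was also plentiful in the sorted cells. The authors report from earlier flow cytometry that the large majority of cells sorted this way were cardiomyocytes. The fibroblast and smooth muscle sums rest mainly on few genes. In control cultures Col1a1 alone was at 3005 to 4587 RPKM, Acta2 at 1461 to 2094 RPKM and Tagln at 817 to 1379 RPKM. Fibroblast markers summed to 3899 to 5865 RPKM and then to 2972 to 3136 RPKM, with 2 of 6 lower, and smooth muscle markers to 2317 to 3567 and 1985 to 2076 RPKM, with none of 5 past the limits. Epicardial markers summed to 485 to 574 and 552 to 577 RPKM (1 of 5 lower), endothelial markers to 10.7 to 16.7 and 15.7 to 18.1 RPKM (2 of 5 higher) and macrophage markers to 6.96 to 16.7 and 6.45 to 8.73 RPKM (1 of 5 lower). The erythroid sum was at most 1.60 RPKM in any culture, and 4 of its 5 markers had a median of 0. Vcam1 was at 6446 ± 999 normalized counts in control cultures and 5389 ± 106 after knockdown (SD, n = 3 each, log2 fold change -0.26, adjusted p = 0.148 in the same test). In bulk RNA, fewer cells of a type and less RNA per cell cannot be told apart. The part of cell make-up, depth and reads outside exons in the values below was not tested.

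In the control cultures the members ranged from very abundant to barely detected. Trim28 was at 80.3 ± 3.19 RPKM, above 97.3% of the tested genes. Ehmt2 (42.6 ± 3.02 RPKM) and Cbx5 (34.8 ± 3.92 RPKM), the gene of HP1 alpha, stood at the percentiles 93.8 and 92.0. Below these came Cbx1 (11.6 ± 0.238), Setdb1 (7.62 ± 0.153), Trim33 (7.33 ± 0.283) and Trim24 (6.82 ± 0.347), at percentiles between 60.2 and 73.6. Suv39h1 followed at 3.75 ± 0.680 RPKM, Cbx3 at 1.69 ± 0.122 RPKM and Trim66 at 0.235 ± 0.124 RPKM, the last above 7.22% of the tested genes (SD, n = 3 for each). The cultures of neighbours in this order did not overlap, apart from Setdb1 with Trim33 and Trim33 with Trim24. Ehmt2 and Cbx5 were nearly in contact, with 39.5 RPKM in the lowest Ehmt2 culture and 39.3 RPKM in the highest Cbx5 culture. The order depends on the length used. With the length of the longest transcript, Trim24 stood at 14.4 RPKM and lay above Setdb1 (9.24 RPKM) and Trim33 (8.10 RPKM).

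**Figure D1:**
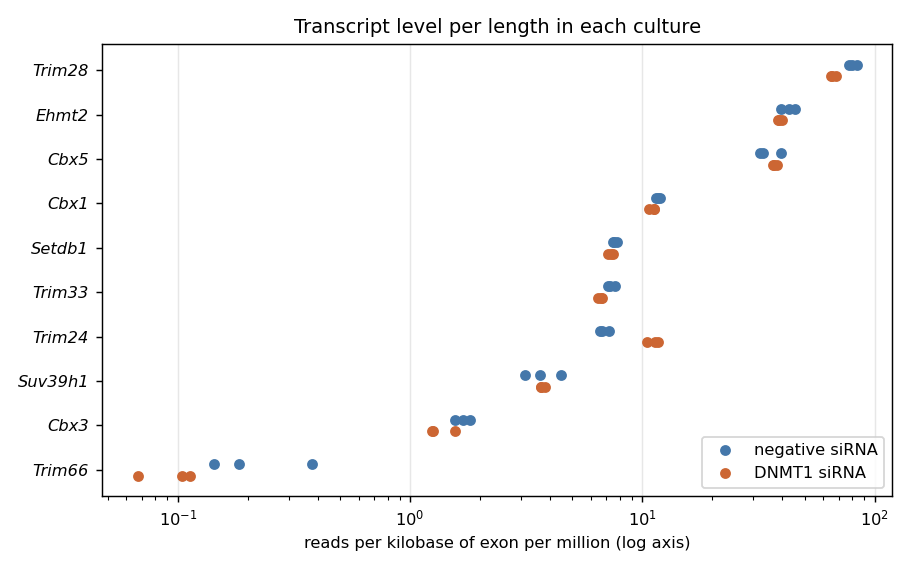
Transcript level of the 10 members in each culture, in RPKM on a log axis (blue, negative siRNA; orange, DNMT1 siRNA; 3 points each). Trim24 moves from the level of Trim33, at 6.56 to 7.21, to about that of Cbx1, at 10.5 to 11.7, and Trim28 stays the most abundant at 65.0 to 83.5.

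Of the 10 members, 1 was called higher and 0 lower at an FDR below 0.05 and a fold change above 1.5, limits that 4.26% of all tested genes passed in the higher and 2.23% in the lower direction. At an FDR below 0.05 without the fold limit 1 was higher and 1 lower, where 6.81% and 5.65% of all tested genes were. In 1 member every knockdown culture was above every control culture, and in 6 members every one was below, where 18.3% and 17.7% of all tested genes showed this. Nothing about the members is read from these counts, since the list was made with this comparison in view. The median log2 fold change of the 10 members was -0.10, beside -0.0049 over all tested genes, and 8 members lay below 0. In 6 of the 10 the difference was within 0.2 of 0 on the log2 scale, as it was in 50.5% of all tested genes.

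Trim24 (ENSMUSG00000029833, chromosome 6 of GRCm38, 37870811 to 37966296, plus strand) was the member that passed both limits. The list was selected on these counts, so a limit passed or missed by this or another member is a description, not a test. Its normalized counts were 1334, 1213 and 1236 in the control cultures and 2156, 2099 and 1938 in the knockdown cultures. The lowest knockdown culture was thus well above the highest control culture. The means were 1261 ± 64.2 and 2064 ± 113 (SD, n = 3 each), a 1.64-fold higher level (log2 fold change 0.71, SE 0.074). Raw counts behind these values were 1589 to 2286 in control cultures and 1185 to 1608 after knockdown. The raw counts overlapped, at library sizes that differed between the treatments.

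Trim28 (ENSMUSG00000005566, chromosome 7, 12999114 to 13031035, plus strand), the KRAB corepressor, was lower after knockdown. The control cultures had 7242, 7543 and 6968 normalized counts, and the knockdown cultures had 6129, 5918 and 5867. The groups did not overlap, and the difference was small (log2 fold change -0.28, SE 0.064, 1.21-fold lower). It passed the FDR limit but not the fold limit, and lost the FDR limit when any knockdown culture was left out.

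Trim33 (ENSMUSG00000033014, chromosome 3, 103279293 to 103358775, plus strand), the SMAD partner, had 1628, 1511 and 1545 normalized counts in control cultures and 1432, 1364 and 1408 after knockdown. All knockdown cultures were below the control cultures by a small margin (log2 fold change -0.16, SE 0.066). Trim24 and Trim33, close relatives of similar level in the control cultures on the exon length scale, therefore came apart. The ratio of their RPKM was 0.929 ± 0.0121 in control cultures and 1.70 ± 0.0986 after knockdown (SD, n = 3 each). With the length of the longest transcript the ratio was 1.77 ± 0.0231 and 3.24 ± 0.188, so its size depends on the length chosen for each gene, while its relative change between treatments does not.

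Trim66 (ENSMUSG00000031026, chromosome 7, 109449006 to 109508134, minus strand) had few reads, 54, 120 and 52 raw counts in the control cultures and 11 to 17 in the knockdown cultures. Normalized counts were 31.5, 82.7 and 40.4 in control cultures and 14.8, 24.8 and 22.9 after knockdown. The groups did not overlap, and control replicate 2 was far above the other cultures. The log2 fold change of -1.31 had an SE of 0.43, and without control replicate 2 it was -0.79. Trim66 did not pass the FDR limit in the edgeR quasi-likelihood fit. It passed both limits with DESeq2, with edgeR's exact test, without the filter on low counts and without control replicate 1. All these settings use counts on which the list was selected, so none is a test of Trim66.

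Within the TRIM24 family, Trim28 made up most of the summed level per length in every culture. Its share was 84.8% ± 0.725 in control cultures and 78.8% ± 0.272 after knockdown. The share of Trim24 was 7.20% ± 0.437 and 13.3% ± 0.466, and that of Trim33 7.75% ± 0.416 and 7.84% ± 0.188 (SD, n = 3 each). The cultures of the treatments did not overlap in the Trim28 and Trim24 shares, whereas the Trim33 share had overlapping cultures. Trim28 exceeded Trim24 by a ratio of 11.8 ± 0.837 in control cultures and 5.94 ± 0.233 after knockdown. With the length of the longest transcript this ratio was 7.18 ± 0.509 and 3.61 ± 0.142, and the Trim24 share 11.4% ± 0.668 and 20.3% ± 0.652 (SD, n = 3 each). The sum over the 4 genes was 94.7 ± 3.17 RPKM in control cultures and 84.0 ± 2.14 RPKM after knockdown and did not overlap.

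**Figure D2:**
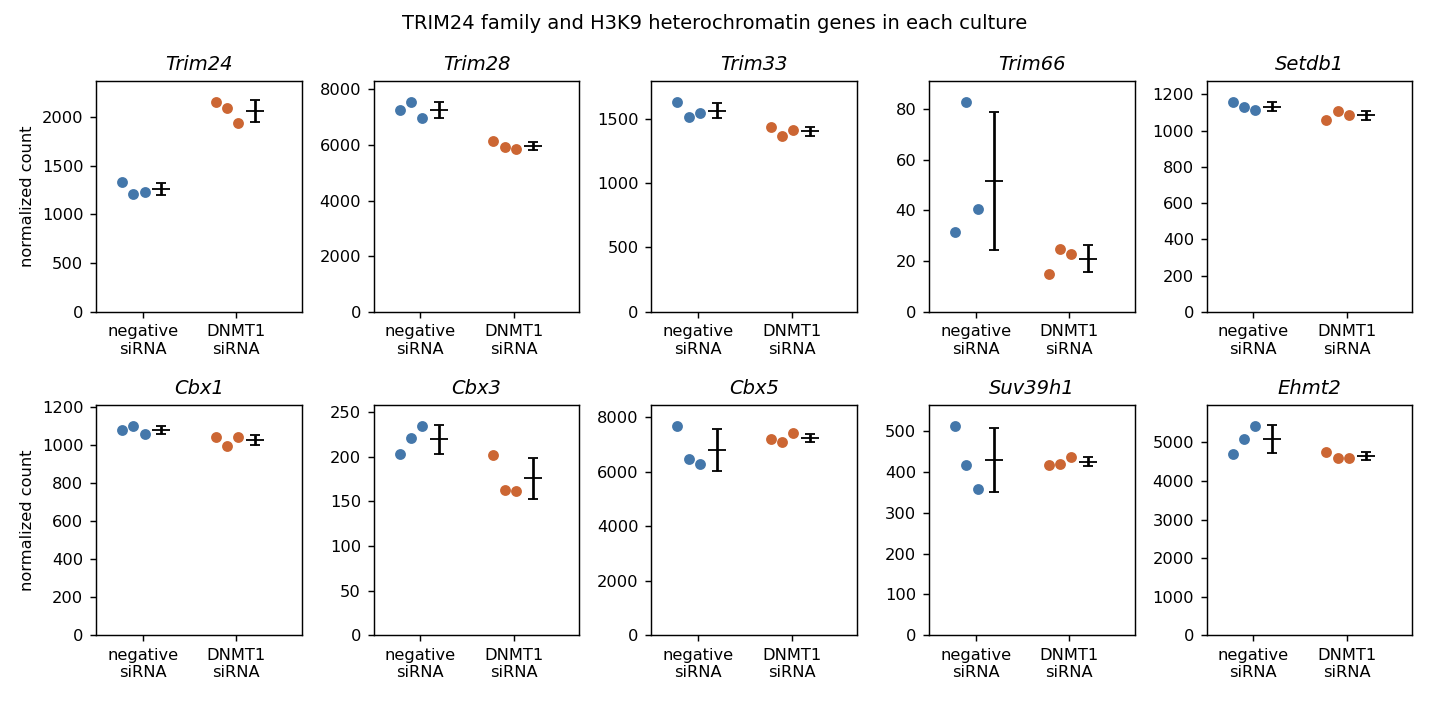
Normalized counts of each member in the 3 negative siRNA (blue) and 3 DNMT1 siRNA (orange) cultures, with the mean and SD in black beside them; each panel has its own vertical axis from 0. Trim24 is at 1213 to 1334 and 1938 to 2156, Trim28 at 6968 to 7543 and 5867 to 6129, and the points of Cbx5, Suv39h1 and Ehmt2 overlap between treatments.

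The 3 H3K9 methyltransferases among the members differed little between treatments in reads counted over the whole gene. Use of single exons was not analysed here. Setdb1 (ENSMUSG00000015697, chromosome 3, 95323525 to 95357202, minus strand), the enzyme that TRIM28 recruits, ranged from 1114 to 1158 normalized counts in control cultures and from 1057 to 1108 after knockdown. The groups were separate by a few counts, with a log2 fold change of -0.064 (SE 0.066). Ehmt2 (ENSMUSG00000013787, chromosome 17, 34898469 to 34914052, plus strand) had 4711, 5089 and 5431 normalized counts in control cultures and 4759, 4606 and 4584 after knockdown. Control replicate 1 lay among the knockdown cultures, and the log2 fold change was -0.13 (SE 0.071). Suv39h1 (ENSMUSG00000039231, chromosome X, 8061171 to 8074760, minus strand), the methyltransferase of pericentromeric heterochromatin, had 512, 416 and 358 normalized counts in control cultures and 417, 418 and 437 after knockdown. The knockdown cultures sat inside the wider range of the control cultures (log2 fold change -0.019, SE 0.13), and the sign changed with the culture left out, from -0.13 to 0.13.

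Ehmt2 was the most abundant of the 3 per length, with 78.9% ± 2.41 of their sum in control cultures and 78.0% ± 0.684 after knockdown. Setdb1 had 14.1% ± 0.858 and 14.6% ± 0.501, and Suv39h1 6.99% ± 1.55 and 7.41% ± 0.257 (SD, n = 3 each). These shares overlapped between treatments for all 3 enzymes. Ehmt2 exceeded Setdb1 by a ratio of 5.60 ± 0.506 in control cultures and 5.36 ± 0.233 after knockdown.

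Among the HP1 genes, Cbx5 (ENSMUSG00000009575, chromosome 15, 103191544 to 103239816, minus strand) had 7691, 6480.0 and 6272 normalized counts in control cultures and 7201, 7112 and 7409 after knockdown. Control replicate 1 was the highest of all cultures and the other two control cultures the lowest, so the groups overlapped (log2 fold change 0.087, SE 0.087). Cbx1 (ENSMUSG00000018666, chromosome 11, 96789127 to 96808640, plus strand), the gene of HP1 beta, ranged from 1057 to 1101 in control cultures and from 996 to 1040.2 after knockdown. Its groups were separate by a narrow gap, with a log2 fold change of -0.074 (SE 0.066). Cbx3 (ENSMUSG00000029836, chromosome 6, 51470360 to 51483704, plus strand), the gene of HP1 gamma, had 203, 221 and 235 normalized counts in control cultures and 202, 163 and 162 after knockdown. The groups came within 1 normalized count of each other, and the log2 fold change was -0.32 (SE 0.14).

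Cbx5 made up 72.2% ± 2.31 of the summed HP1 level per length in control cultures and 74.9% ± 0.558 after knockdown. Cbx1 had 24.2% ± 1.83 and 22.4% ± 0.212, and Cbx3 3.53% ± 0.515 and 2.74% ± 0.355 (SD, n = 3 each). All 3 shares had overlapping cultures. The ratio of Cbx5 to Cbx1 was 3.00 ± 0.336 in control cultures and 3.35 ± 0.0561 after knockdown. With the length of the longest transcript this ratio was 1.71 ± 0.191 and 1.91 ± 0.0319, and the Cbx3 share 5.79% ± 0.766 and 4.57% ± 0.573 (SD, n = 3 each).

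**Figure D3:**
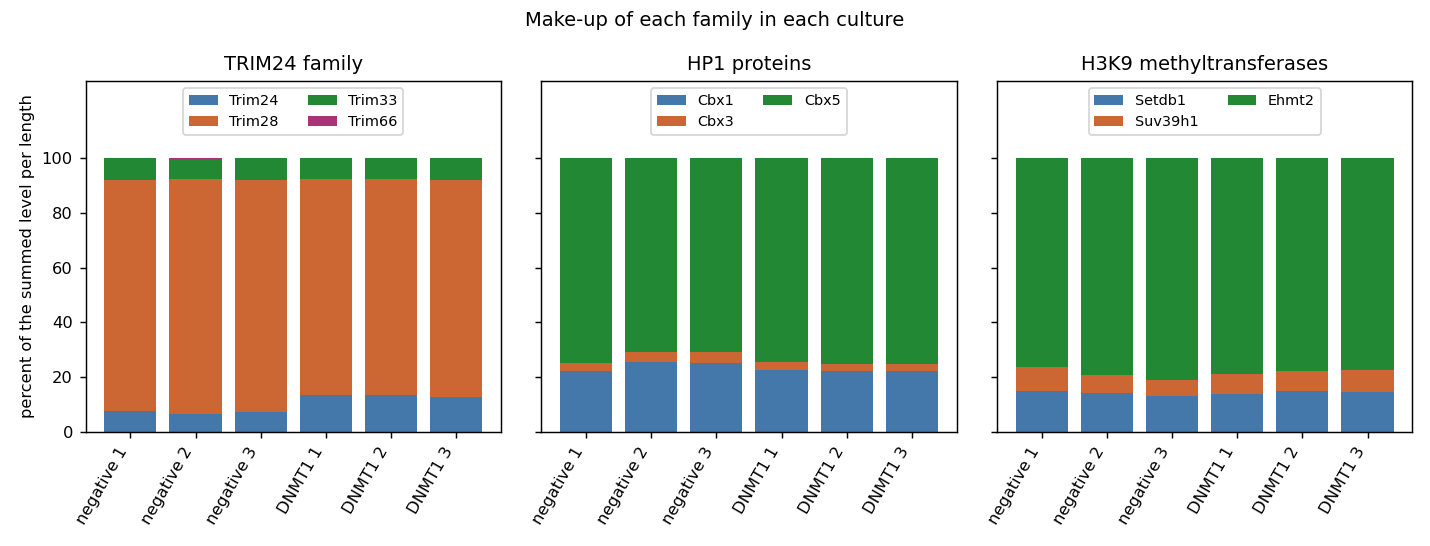
Share of each gene in the summed level per length of its family, in percent, for each of the 6 cultures. The Trim24 share is 6.72 to 7.57% in control cultures and 12.8 to 13.6% after knockdown, and Trim28, Cbx5 and Ehmt2 are the main gene of their family in every culture.

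The low Cbx3 level must be read with its copies in the genome. Of the windows of 75 bases in its longest coding transcript, 26.3% also occurred in transcripts of other genes and 22.2% in pseudogenes named after Cbx3. Reads placed equally well in several loci were not counted on any gene. Of the 5 pseudogenes named after Cbx3 that were matched to the count files, Cbx3-ps6 had 78.3 ± 15.2 normalized counts in control cultures and 82.8 ± 21.2 after knockdown (SD, n = 3 each, log2 fold change 0.080, adjusted p = 0.857 in the quasi-likelihood test), and Cbx3-ps1, Cbx3-ps3, Cbx3-ps4 and Cbx3-ps7 averaged below 1 in both. In Suv39h1, 19.0% of such windows also lay in the antisense transcript Gm14820, which covers 767 bases of its exons (14.6%), and in Setdb1 6.70% were shared, mostly with Gm4349. The library kit does not mark the strand, so reads of Suv39h1 and Gm14820 in the shared stretch cannot be told apart. The other 7 members shared no such window with another gene. Alignments to several places made up 41.3 to 42.5% of all alignments in control cultures and 48.3 to 52.9% after knockdown.

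The cultures of a treatment agreed closely for most members. The SD of log2 normalized counts between cultures was below the median over all tested genes for 8 of the 10 members in either treatment, with medians of 0.176 for negative siRNA and 0.0989 for DNMT1 siRNA. The 2 exceptions in control cultures were Trim66 (0.72) and Suv39h1 (0.26). With DNMT1 siRNA they were Trim66 (0.39) and Cbx3 (0.18). Trim66, Cbx3 and Suv39h1 had the lowest mean normalized counts of the members in control cultures (51.6, 220 and 429). The medians are over genes of all count levels, and the part of count level in this spread was not tested.

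The other genes of the H3K9 pathway were taken from 5 lists of 52 genes, of which 48 were tested. None of the 48 passed both limits in either direction with edgeR's quasi-likelihood test, with DESeq2 or with edgeR's exact test. In the quasi-likelihood test 9 were higher and 7 lower at an unadjusted p below 0.05. The share of all tested genes at that limit is not given here, so nothing is read from these counts. Their median log2 fold change was -0.0092. Without the fold limit, 4 of the 48 were higher (8.33%) and 2 were lower (4.17%), each by a small amount. Of all tested genes 6.81% were higher and 5.65% lower, so both counts were near the shares of all genes. The 6 genes were named after their values were seen. The higher ones were Lbr, an HP1-binding receptor of the nuclear envelope, Tasor, a subunit of the HUSH silencing complex, Atf7ip, the partner that stabilizes SETDB1, and Phf8, an H3K9 demethylase. Lbr rose from 973 ± 97.4 to 1298 ± 46.4 normalized counts (log2 fold change 0.41, adjusted p = 0.0218). Tasor differed by 0.34 on the log2 scale (adjusted p = 0.0251), Atf7ip by 0.32 (adjusted p = 0.0204) and Phf8 by 0.30 (adjusted p = 0.0401), all in the same edgeR test. The lower ones were Kdm1a, the demethylase LSD1, which fell from 3010 ± 273 to 2350.2 ± 99.5 normalized counts (log2 fold change -0.36, adjusted p = 0.0286), and Morc2a, a chromatin compaction ATPase (log2 fold change -0.34, adjusted p = 0.0386). Over 12 alternatives the adjusted p of these 6 genes ranged from 0.000427 to 0.170. All 6 calls were lost when any knockdown culture was left out (adjusted p from 0.0641 to 0.170 in edgeR's quasi-likelihood test). Some other settings ended part of the calls too.

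By list, 1 of 9 other methyltransferases and cofactors was higher and none lower without the fold limit, with a median log2 fold change of 0.063. Prdm2, the most abundant of them per length (13.3 ± 0.753 RPKM), differed by 0.16 on the log2 scale (adjusted p = 0.155). Of 10 tested demethylases 1 was higher and 1 lower (median -0.0055), and Kdm1a was the most abundant, at 26.8 ± 2.43 RPKM. Of 5 HUSH and MORC genes 1 was higher and 1 lower (median -0.13), and Morc2a was the most abundant, at 13.9 ± 1.29 RPKM. Of 14 HP1 partners and assembly factors 1 was higher and none lower (median 0.017), while DESeq2 and edgeR's exact test each found 1 higher and 2 lower, and Hp1bp3 led in level at 25.7 ± 0.891 RPKM (log2 fold change -0.13, adjusted p = 0.195). Of 10 tested KRAB zinc finger genes, whose proteins bring TRIM28 to DNA, none passed (median -0.090), and Zfp57, a protector of imprints, led in level at 15.7 ± 1.79 RPKM (log2 fold change 0.24, adjusted p = 0.144). Zfp69 passed both limits only when control replicate 2 was left out (log2 fold change 1.02, adjusted p = 0.0141), against 0.71 (adjusted p = 0.124) with all cultures, in edgeR's test.

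**Figure D4:**
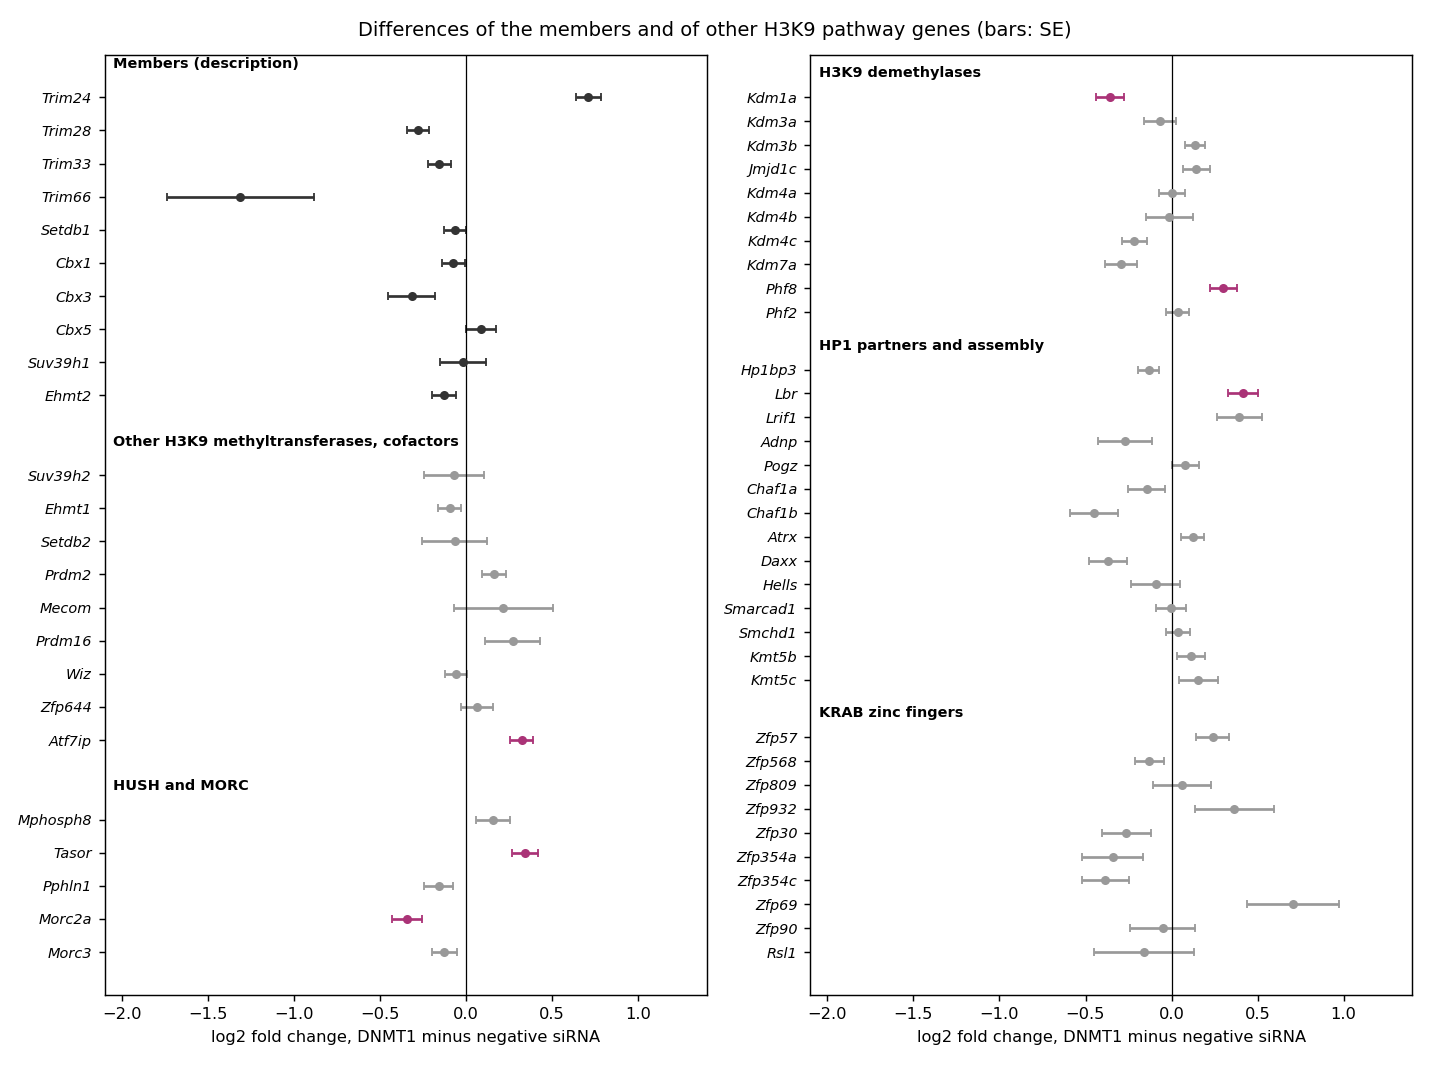
Log2 fold changes, DNMT1 siRNA minus negative siRNA, with bars for the SE. Members are in black as a description; other H3K9 pathway genes are purple where the adjusted p was below 0.05 at any fold change and grey otherwise. Trim24 at 0.71 and Trim66 at -1.31 are the members furthest from 0, and the pathway genes with an adjusted p below 0.05 lie between -0.36 and 0.41.

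2 further lists, of retinoid and of proliferation genes, were set beside the members. Of 9 tested retinoic acid receptors and responsive genes, none was higher and 1 was lower past both limits (median log2 fold change -0.25). That gene was Crabp2, a carrier of retinoic acid in the cell, with 36.2, 84.8 and 81.7 normalized counts in control cultures and 16.1, 17.5 and 6.54 after knockdown (log2 fold change -2.30, SE 0.45, adjusted p = 0.0168 in edgeR's test). Its groups did not overlap, although its level was low throughout, and the call was lost when any knockdown culture was left out (adjusted p from 0.0615 to 0.0684). DESeq2 and edgeR's exact test each called 0 of the 9 higher and 2 lower. Trim24 was the higher member in the same cultures, and whether the values are related was not tested.

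Of 16 proliferation genes none passed the limits (median log2 fold change -0.10), 0 had an adjusted p below 0.05 and 1 was lower at an unadjusted p below 0.05, in edgeR's test. DESeq2 and edgeR's exact test also called 0. For 15 of the 16 the highest of the control cultures was replicate 1. The same held for 5 of the 10 members, namely Trim24, Trim33, Setdb1, Cbx5 and Suv39h1. The part of proliferation in those values was not tested. Mki67, the most abundant proliferation gene per length at 25.1 ± 4.71 RPKM, had 6680.5 normalized counts in control replicate 1 and 4849 and 4948 in the other control cultures. The summed level of the 16 genes was 235 RPKM in control replicate 1 and 178 to 194 RPKM in the remaining 5 cultures.

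By the outermost annotated start of each gene, 4 members start within 1 kb of a gene on the other strand. Hnrnpa2b1, an RNA-binding protein gene whose start lies 466 bases from that of Cbx3, was at 9248 ± 626 normalized counts in control cultures and 10028 ± 368 after knockdown (log2 fold change 0.12, SE 0.074, adjusted p = 0.335). Hnrnpa1, 616 bases from Cbx5, differed by 0.085 on the log2 scale (SE 0.12, adjusted p = 0.687), with 44.4% of its windows of 75 bases shared with other genes. The complement gene C2, 204 bases from Ehmt2, differed by -0.12 on the log2 scale (SE 0.24, adjusted p = 0.787), all in edgeR's test. None of these neighbours passed a limit. Slc27a5, 922 bases from the outermost annotated start of Trim28, averaged 3.46 normalized counts in control cultures and 2.55 after knockdown and was not tested. The RefSeq start of Trim28, whose window is shown above, lies further from Slc27a5 than 1 kb.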

How the data were processed

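Per the labels and the study's methods, polyadenylated RNA was made into libraries with a kit that does not mark strand, and the authors mapped reads to mm10 with TopHat2 after FastQC and counted them with HTSeq on Ensembl genes (tool versions are not given in the sources used here). The deposited values are raw read counts per gene, 1 file per sample, and the counter's unassigned totals were kept out of library sizes. Titles and the treatment protocol name DNMT1, which was followed over a treatment tag that names DNMT3a. Counts were tested in R 4.3.3 with edgeR 4.0.16 (quasi-likelihood test, TMM, filterByExpr with a minimum count of 10 and a minimum total of 15) and adjusted by Benjamini-Hochberg over 15470 genes, and genes with an FDR below 0.05 and a fold change above 1.5 were called. DESeq2 1.42.0, edgeR's exact test, RLE normalization, other filters, a replicate block and leaving out each culture were the alternatives. RPKM used the union of exons in GENCODE vM21 (GRCm38), which held 42548 of the 43629 genes and is newer than the authors' annotation. The scripts were tested on simulated data. The chi-square per degree of freedom was 26.4 to 54.5 between control cultures and 2.70 to 9.86 between knockdown cultures. Thus no pair of libraries was a copy. Sequences came from RefSeq (GRCm38.p6). Members and lists were chosen with earlier results of these data known. Named were all members, list genes past the limits (at most 3 in each direction), the most abundant gene of each list, neighbours with a start within 1 kb, pseudogenes named after a member, Dnmt1 and Vcam1. Some results of the lists, among them 4 of the 5 genes that were lower past both limits, are not reported here.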

Additional observations from a re-analysis of the deposited data

How the results depend on the processing

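Trim24 passed both limits under all 12 alternatives, with log2 fold changes from 0.65 to 0.75. Trim28 kept its direction in all 12 (-0.32 to -0.25) and the FDR limit in 8. The alternatives refit the same cultures on which the list was selected, so they are no test of the members. Over all genes, 659 were higher and 345 lower. No filter gave 994 and 701, no limit on fold change 1054 and 874, and leaving out 1 culture gave 255 to 823 and 112 to 472. The lists other than the members had 0 genes higher and 5 lower. No filter gave 1 and 13, edgeR's exact test 9 lower, no limit on fold change 4 higher, and leaving out 1 culture 0 to 2 higher and 0 to 14 lower, with 0 lower when any knockdown culture was left out and 14 when control replicate 2 was. Leaving out a knockdown culture gave 255 to 316 higher and 112 to 146 lower, and leaving out a control culture 630.0 to 823 and 345 to 472, and the cause of the difference was not tested.

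Cultures of equal number did not deviate together (correlations of 0.0064, -0.021 and 0.027), beside -0.076 to 0.065 for cultures of unequal number. These values show no pairing by number. Whether cultures of equal number shared a litter or a day was not tested. With the replicate number as a block, 513 genes were higher and 285 lower, Trim24 had a log2 fold change of 0.71, and Trim28, Phf8, Tasor and Morc2a no longer passed the FDR limit. Depth limits Trim66, with 11 to 17 reads per knockdown culture, and Cbx3, with 99 to 151.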
